A study of Mus musculus with 6 samples.

Results

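Collagen genes are described here in the proximal stumps of cut sciatic nerves from male and female mice. The members were all genes with a protein-coding transcript whose symbol has the form Col, a number, a and a number, which gave 44 of the 54309 genes listed. The males were C57BL/6 mice, 6–8 weeks old, whose left sciatic nerve was cut completely at mid-thigh (axotomy) and whose proximal stump was taken 24 h later. The females were of the same strain and age and underwent the same operation and collection. Each sex had 3 libraries of poly-A RNA, each from the nerves of 2 pooled mice, so p-values measure the spread between pools. The comparison asked which collagen transcripts differed by sex in the injured nerve, and no uninjured nerve was analysed here.

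Collagens are extracellular proteins whose chains wind around each other into a helical rod. Glycine recurs at every step of a Gly-X-Y repeat in that rod, because no larger side chain fits at its centre. Fibrillar collagens form the cable-like fibrils of connective tissue, type IV collagen forms the sheet of basement membranes, and fibril-associated collagens (FACITs) bind to fibril surfaces. In peripheral nerve, fibroblasts of the epineurium and endoneurium deposit fibrils, and Schwann cells assemble a basal lamina around each axon-Schwann cell unit along which axons can regrow.

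The estimated counts summed to 69848769, 56486909 and 51936195 in the male libraries and to 49158283, 54434147 and 64802091 in the female libraries. Transcripts of Schwann cells were present: the marker S100b stood at 382–499.9 TPM (a measure of transcript abundance corrected for length) in males and 178–250.2 TPM in females, and the marker Prx at 1083–1249 TPM in males and 495–665 TPM in females. Both passed the test, higher in males, while Cdh19, Erbb3 and Ngfr of the same list did not, with log2 fold changes of 0.01, 0.08 and -0.10. The 10 fibroblast markers summed to 3963–5378 TPM in males and 3143–5624 TPM in females, with overlap, and 1 of 10 was called, lower in males. Of 8 oligodendrocyte and astrocyte markers 5 were called higher in males, and their summed level was 431–533 TPM in males against 265–314 TPM in females, most of it from Cnp. The calls included Mog, at 0.803–1.42 TPM in males and 0–0.0250 TPM in females, and Mobp, at 3.22–10.4 TPM in males and 0.267–0.491 TPM in females, as well as Aqp4 and Slc1a2. The 5 meningeal markers summed to 22.0–34.4 TPM in males and 13.5–19.995 TPM in females, without overlap, and Ptgds among them was called, higher in males. The defining cartilage genes Acan, Matn1, Matn3 and Hapln1 were at or near 0 in every library, with the highest value, 0.083 TPM, for Hapln1. The other cartilage markers, Comp and Sox9, stood at 5.81–9.71 and 8.90–11.5 TPM in males and at 3.61–5.13 and 7.96–9.22 TPM in females. All 6 summed to 15.1–21.4 TPM in males and 11.6–13.8 TPM in females, without overlap, and the 2 that could be tested were not called. The 6 keratinocyte markers summed to 6.01–7.82 TPM in males and 5.06–6.17 TPM in females, with overlap and no call, nearly all from Krt10, and Krt5 and Krt14 were near 0. The 6 macrophage markers summed to 1112–1946 TPM in males and 1579–2462 TPM in females, and the 8 adipocyte markers to 112–571 TPM in males and 164–1348 TPM in females. The part of these markers in the collagen results was not tested, and fewer cells of a type cannot be told apart from less RNA per cell in whole-nerve RNA.

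The repeat that defines a collagen can be read in the coding sequence, shown here for the 5 genes that passed the test between the sexes and for Col1a1 as the textbook fibrillar chain. Each line gives the first 7 codon triplets of the longest uninterrupted Gly-X-Y run in the longest coding transcript, 63 bases in the sense direction, and capitals mark the glycine codon that opens each triplet (sequence and coordinates from assembly GRCm39 with GENCODE M39).
Col23a1: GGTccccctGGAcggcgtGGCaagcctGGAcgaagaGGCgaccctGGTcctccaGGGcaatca
Col9a2: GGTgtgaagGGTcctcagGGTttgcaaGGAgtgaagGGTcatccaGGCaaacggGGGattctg
Col26a1: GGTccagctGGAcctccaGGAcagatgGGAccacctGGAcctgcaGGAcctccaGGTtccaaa
Col5a3: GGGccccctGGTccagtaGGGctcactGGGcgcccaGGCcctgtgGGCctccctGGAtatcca
Col11a1: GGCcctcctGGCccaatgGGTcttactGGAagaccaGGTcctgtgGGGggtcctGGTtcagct
Col1a1: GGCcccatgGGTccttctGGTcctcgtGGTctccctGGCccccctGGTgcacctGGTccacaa
The length of that run set the fibrillar genes apart from the others, while the other classes overlapped. It was 338 triplets in Col1a1 and in Col11a1, 337 in Col5a3, 344 in Col3a1, and 216 and 217 in Col24a1 and Col27a1. All runs of 5 triplets or more together held 327 triplets in Col24a1 and 329 in Col27a1, against 355 in Col1a1. The shorter longest run of those 2 genes is therefore not the length of the whole helix. In the type IV genes the longest run was at most 66 triplets, in Col4a2, because interruptions split the helix into many runs, 22 of them in Col4a1. The 3 type IX genes shared a run of 113 triplets, the longest run of Col23a1 was 43 and that of Col26a1 was 23. Gly-X-Y runs of 5 triplets or more took up 73.3% of the codons of Col1a1, 85.9% of those of Col9a2, 69.4% of those of Col23a1, 23.3% of those of Col26a1 and 8.22% of those of Col12a1, a FACIT made largely of other domains.

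Together the collagen genes made up 0.389%, 0.295% and 0.328% of all transcripts in the male libraries, by TPM, and 0.246%, 0.293% and 0.267% in the female libraries. The mean was 0.337 ± 0.0475% in males and 0.269 ± 0.0238% in females (SD, n = 3 each). Every male library stood above every female one, but male library 2 and female library 2 were nearly level. By CPM, which scales read counts to the TMM-adjusted library total (TMM, trimmed mean of M values) without correction for transcript length, the shares were 1.14 ± 0.209% in males and 1.02 ± 0.0720% in females, and the sexes overlapped.

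Averaged over the 6 libraries, 8 genes stood at 100 TPM or more, 14 at 10 to 100 TPM, 10 at 1 to 10 TPM and 12 under 1 TPM, none of which was called. Fibrillar genes took 60.8 ± 2.19% of collagen TPM in males and 55.9 ± 1.32% in females, with every male library above every female one. Short-chain network genes took 2.89 ± 0.205% in males and 4.56 ± 0.362% in females, without overlap. Transmembrane collagens took 1.89 ± 0.341% in males and 1.12 ± 0.120% in females, also without overlap. The pair Col26a1 and Col28a1, classed together as other collagens, took 3.52 ± 0.643% in males and 6.82 ± 0.347% in females, without overlap. The basement membrane class took 11.1 ± 0.718% in males and 10.4 ± 0.834% in females and the beaded filament class 6.54 ± 0.280% in males and 6.91 ± 1.28% in females, both with overlap. These class shares sum to the same total in each library, so a larger share of one class lowers the others.

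**Figure D1:**
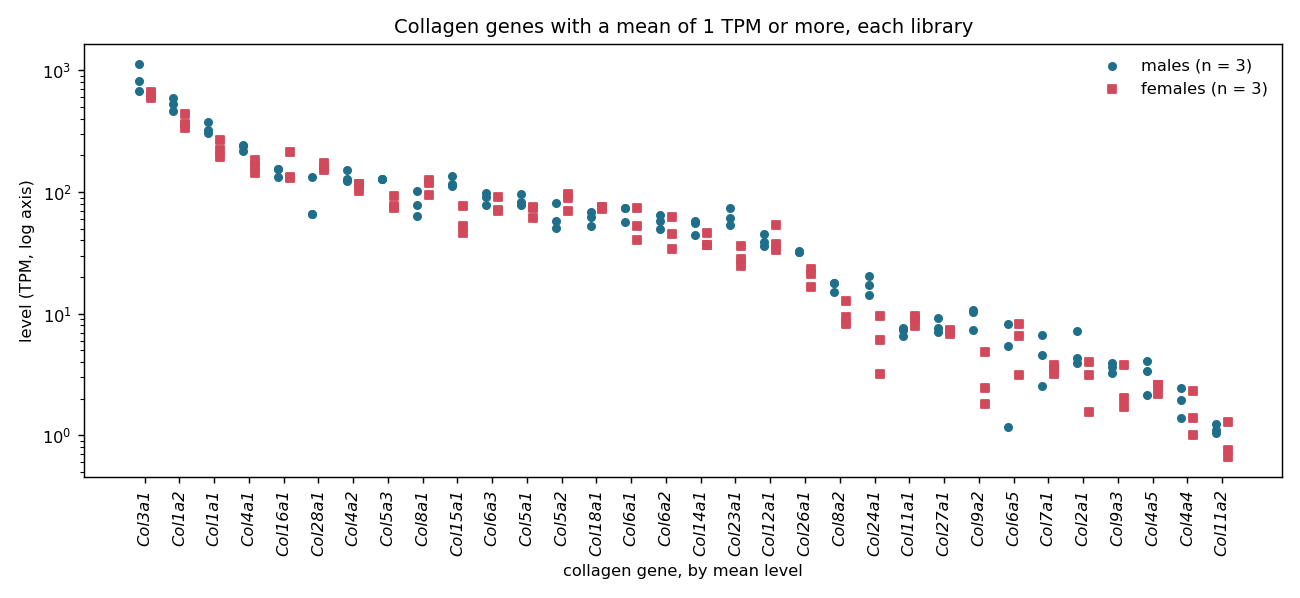
Level of the 32 collagen genes with a mean of 1 TPM or more in each library, on a log axis, with males as circles to the left and females as squares to the right of each gene. Col3a1, Col1a2 and Col1a1 have the highest means, and the ranges of genes next to each other in this order mostly overlap.

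Of the 44 genes, 42 had enough counts to be tested. Col10a1, a chain of growth plate cartilage, had 1 count in female library 2 and none in the other libraries. Col19a1, a FACIT, had 7 and 3 counts in male libraries 2 and 3 and none elsewhere. Under the quasi-likelihood test of edgeR, 5 of the 42 genes (11.9%) passed an adjusted p of 0.1, against 5.27% of all 18424 genes tested. The 4 genes higher in males (Col23a1, Col9a2, Col26a1 and Col5a3) compare with 3.81% of all genes called in that direction, and the 1 gene lower in males (Col11a1) with 1.46%. Unadjusted p was under 0.05 for 16 of the 42 genes and for 20.7% of all genes. Male and female CPM were separate, with no overlap, for 14 of the 42 genes, 10 with males above and 4 with males below, and for 25.5% of all genes. The median log2 fold change was 0.14 over the collagen genes and -0.03 over all genes tested (log2 fold changes are males minus females throughout). With so few members, these counts describe the set and single out no property of it. Without male library 3 or without female library 1 no collagen gene passed, and all genes called fell to 7 and 1. Without female library 3, 8 of 42 collagen genes passed, beside 2612 of 19076 genes tested in all.

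Col23a1 codes for a transmembrane collagen, a type of chain that spans the cell membrane with the collagenous part outside. It lies at chr11:51180566-51474745 on the plus strand and has 29 exons. Its level was 61.1, 53.4 and 73.5 TPM in males and 24.6, 36.2 and 28.0 TPM in females. All 3 male libraries were above all 3 female ones, and the lowest male stood well above the highest female. The log2 fold change was 1.05 ± 0.16 (SE, n = 3 each) with an adjusted p of 0.0347 in edgeR, the smallest among the collagen genes. It lost the call without male library 3 or without female library 1, with log2 fold changes between 0.93 and 1.19 when single libraries were left out. The longest transcript, Col23a1-201, carried 94.7–97.9% of the TPM of the gene in every library. The other 3 transmembrane collagen genes were all under 1 TPM on average. Their range was 0.0629–0.366 TPM in males and 0.0121–0.506 TPM in females, and none was called.

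Col9a2 codes for 1 of the 3 chains of type IX collagen, the FACIT that coats the type II fibrils of cartilage. It lies at chr4:120896582-120912523 on the plus strand with 32 exons. Its level was 10.3, 7.38 and 10.7 TPM in males and 1.81, 4.81 and 2.46 TPM in females. Males were again all above females, and female library 2 lay closest to the males. The log2 fold change was 1.42 ± 0.28, the largest of all collagen genes tested, with an adjusted p of 0.0577 in edgeR. The call was lost without male library 1, male library 3 or female library 1. The partner chain Col9a3 stood at 3.91, 3.23 and 3.62 TPM in males and 1.72, 3.80 and 2.02 TPM in females. Its log2 fold change was 0.61 ± 0.16, and its adjusted p of 0.102 in edgeR just missed the threshold, although its CPM did not overlap between the sexes. The third chain, Col9a1, stayed at 0.367, 0.469 and 0.356 TPM in males and 0.242, 0.367 and 0.494 TPM in females, so this chain was near the limit of what the libraries show. Type II collagen itself, Col2a1, was at 3.92–7.19 TPM in males and 1.56–3.97 TPM in females and was not called.

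Col26a1 codes for a small secreted collagen whose repeats are short. It lies at chr5:136770613-136912063 on the minus strand. Its level was 32.4, 32.6 and 32.3 TPM in males and 16.7, 23.2 and 21.2 TPM in females. The 3 male libraries were nearly equal and all lay above the females. The log2 fold change was 0.66 ± 0.15 with an adjusted p of 0.0750 in edgeR, and it was kept without female library 3 and lost without any other single library. The remaining gene of this mixed class, Col28a1, went the other way: it stood at 132, 65.9 and 65.7 TPM in males and 160, 175 and 153 TPM in females. Type XXVIII collagen is known from mouse peripheral nerve, where it lies near non-myelinated regions of glia. All females were above all males by TPM, but by CPM male library 1 (421.8) was level with female libraries 1 (421.6) and 2 (418.4), and the sexes overlapped. The log2 fold change of Col28a1 was -0.65 ± 0.26 and it was not called, with an adjusted p of 0.218 in edgeR. Without male library 1 it passed.

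**Figure D2:**
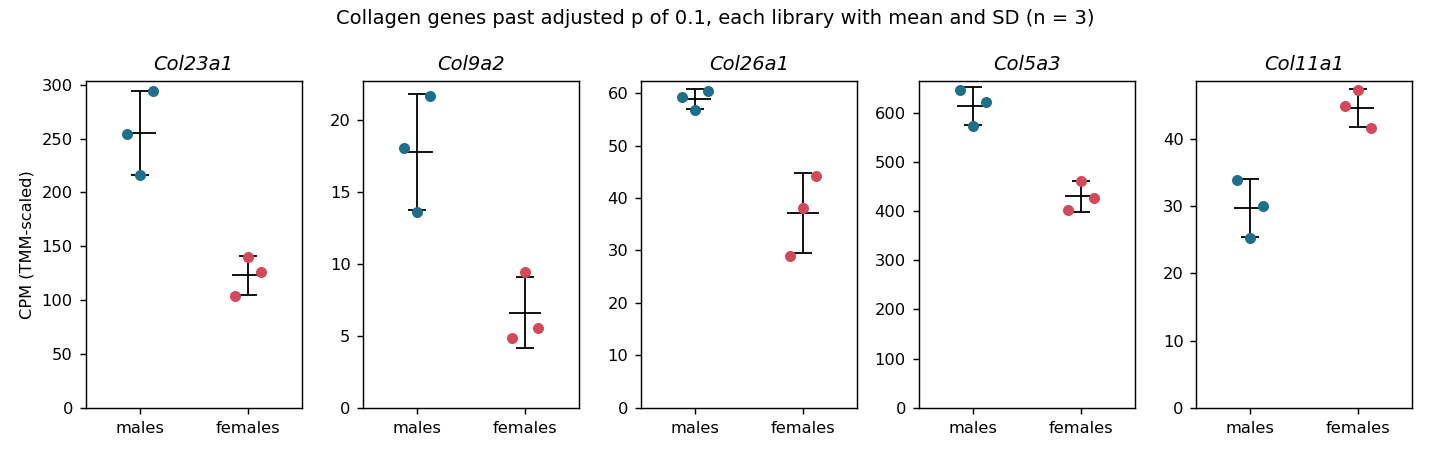
CPM scaled by TMM in each library (points, n = 3 per sex) with mean and SD (bars) for the 5 collagen genes past an adjusted p of 0.1, males left and females right in each panel. Col23a1, Col9a2, Col26a1 and Col5a3 were higher in males and Col11a1 was lower, with no overlap between the sexes in any panel.

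Both called fibrillar genes were of the type V and XI group, and they passed in opposite directions. Col5a3 codes for a type V chain, which in rat Schwann cells is secreted and binds heparan sulfate. It lies at chr9:20681337-20726418 on the minus strand with 67 exons. Its level was 128, 127 and 128 TPM in males and 73.7, 93.0 and 76.8 TPM in females. The males hardly differed among themselves and all lay above the females, and the log2 fold change was 0.51 ± 0.12 with an adjusted p of 0.0833 in edgeR. Almost all of it came from the longest transcript, with 96.6–98.8% of the TPM of the gene. The call was lost without male library 1, male library 3, female library 1 or female library 2.

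Col11a1 codes for a type XI chain, which with type V chains sits in the core of thin fibrils. It lies at chr3:113824134-114014367 on the plus strand with 67 exons. Its level was 7.64, 6.56 and 7.40 TPM in males and 9.11, 9.56 and 7.94 TPM in females, and by CPM 33.9, 25.2 and 30.0 in males and 44.9, 47.3 and 41.6 in females. All males were below all females on both scales, but female library 3 was close to male library 1 by TPM. The log2 fold change was -0.59 ± 0.13 with an adjusted p of 0.0705 in edgeR. The call was lost without male library 2, male library 3, female library 1 or female library 2. It was also the only one of the 5 calls lost when the average effective transcript length, estimated for each library, entered the fit. The log2 fold change of Col11a1 was then -0.26 ± 0.11, with an adjusted p of 0.230 in edgeR. Its partner Col11a2 stood at 1.10, 1.23 and 1.05 TPM in males and 1.29, 0.762 and 0.662 TPM in females, with a log2 fold change of 0.49 ± 0.15 and an adjusted p of 0.135 in edgeR.

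The 3 most abundant collagen genes code for type III and type I fibrils. Col3a1 stood at 1136, 676 and 813 TPM in males and 597, 670 and 626 TPM in females. Male library 1 lay far above the rest, and male library 2 was level with female library 2. Its log2 fold change was 0.14 ± 0.24, within the spread of the pools. Col1a2 stood at 596, 467 and 530 TPM in males and 334, 442 and 362 TPM in females, and Col1a1 at 380, 304 and 321 TPM in males and 195, 270 and 223 TPM in females. For both type I genes every male was above every female on the TPM and CPM scales, with log2 fold changes of 0.49 ± 0.18 and 0.44 ± 0.18. Neither passed in edgeR, with adjusted p of 0.193 and 0.220, while both were called with DESeq2. Of the other fibrillar genes, Col5a1 and Col5a2 of type V had log2 fold changes of 0.01 ± 0.14 and -0.40 ± 0.19, and neither was called. Col24a1 stood at 17.2, 14.1 and 20.3 TPM in males and 6.05, 9.63 and 3.17 TPM in females. Males were above females by TPM but overlapped them by CPM, and the adjusted p was 0.193 in edgeR for a log2 fold change of 0.75 ± 0.28. Col27a1, at 6.75–9.29 TPM, had a log2 fold change of -0.09 ± 0.11 and was not called.

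Of the 6 basement membrane genes none was called, and male and female CPM overlapped for each. Col4a1 and Col4a2, whose products form the common type IV network, stood at 243, 216 and 241 TPM and at 152, 123 and 128 TPM in males. In females they stood at 143, 165 and 183 TPM and at 102, 116 and 117 TPM. Males were above females by TPM for both, while their log2 fold changes from counts were 0.22 ± 0.17 and 0.13 ± 0.16. The genes of the other type IV networks were far lower, at no more than 4.06 TPM in any library, reached by Col4a5 in male library 3. The beaded filament genes of type VI collagen, which surrounds cells in a fine microfibril mesh, likewise gave no call. Col6a3, the highest of them by mean TPM over all its transcripts, stood at 98.0, 91.5 and 77.7 TPM in males and 71.8, 91.2 and 70.1 TPM in females, with overlap. By CPM it leaned the other way, with 262, 206 and 188 in males and 305, 349 and 215 in females, also with overlap. The log2 fold change was -0.40 ± 0.20 with an adjusted p of 0.305 in edgeR. The retained-intron transcript Col6a3-206 held 67.6%, 72.8% and 70.4% of the TPM of Col6a3 in males and 34.8%, 35.9% and 64.8% in females. Col6a1 stood at 74.2, 56.4 and 74.4 TPM in males and 52.9, 73.8 and 40.2 TPM in females. Col6a2 stood at 64.2, 49.9 and 57.9 TPM in males and 45.1, 62.3 and 33.9 TPM in females. Both genes were lowest in female library 3 and near the males in female library 2.

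The other FACIT and multiplexin genes split in direction. Col12a1, whose product decorates type I fibrils, had CPM of 173, 108 and 111 in males and 246, 182 and 225 in females. The sexes did not overlap on that scale, and the log2 fold change was -0.74 ± 0.21 with an adjusted p of 0.112 in edgeR. By TPM the sexes did overlap, with 45.5, 39.1 and 36.3 TPM in males and 37.7, 33.2 and 53.5 TPM in females. Col16a1, another FACIT, stood at 154, 155 and 132 TPM in males and 134, 131 and 213 TPM in females, where female library 3 was apart from the others. Col18a1 codes for the basement membrane multiplexin from which endostatin is cut. It stood at 52.1, 68.2 and 62.9 TPM in males and 75.0, 72.3 and 75.4 TPM in females, and all males were below all females. Its log2 fold change was -0.42 ± 0.11 with an adjusted p of 0.106 in edgeR. The second multiplexin, Col15a1, which lies at the outer face of basement membranes, stood at 117, 112 and 136 TPM in males and 52.4, 76.4 and 46.2 TPM in females. Males were clearly above females by TPM, while the log2 fold change from counts was 0.58 ± 0.26 with an adjusted p of 0.260 in edgeR.

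Col8a1 and Col8a2, short-chain network collagens made by endothelial and other vessel cells, went in opposite directions without passing the test. Col8a1 stood at 102, 63.8 and 78.3 TPM in males and 94.7, 125 and 118 TPM in females, and male library 1 lay among the females. Col8a2 stood at 17.7, 15.0 and 17.8 TPM in males and 8.26, 9.31 and 12.6 TPM in females, and all males were above all females. The log2 fold changes were -0.43 ± 0.23 and 0.65 ± 0.20, with adjusted p of 0.328 and 0.137 in edgeR. Col7a1, the anchoring fibril chain known from skin, had CPM of 12.4, 13.0 and 12.6 in males and 8.14, 10.6 and 8.78 in females. The male libraries were nearly equal and above all females on that scale. By TPM they stood at 2.54, 6.68 and 4.57, against 3.78, 3.51 and 3.19 in females, so the males were spread widely and overlapped the females. The log2 fold change was 0.46 ± 0.14 with an adjusted p of 0.133 in edgeR.

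**Figure D3:**
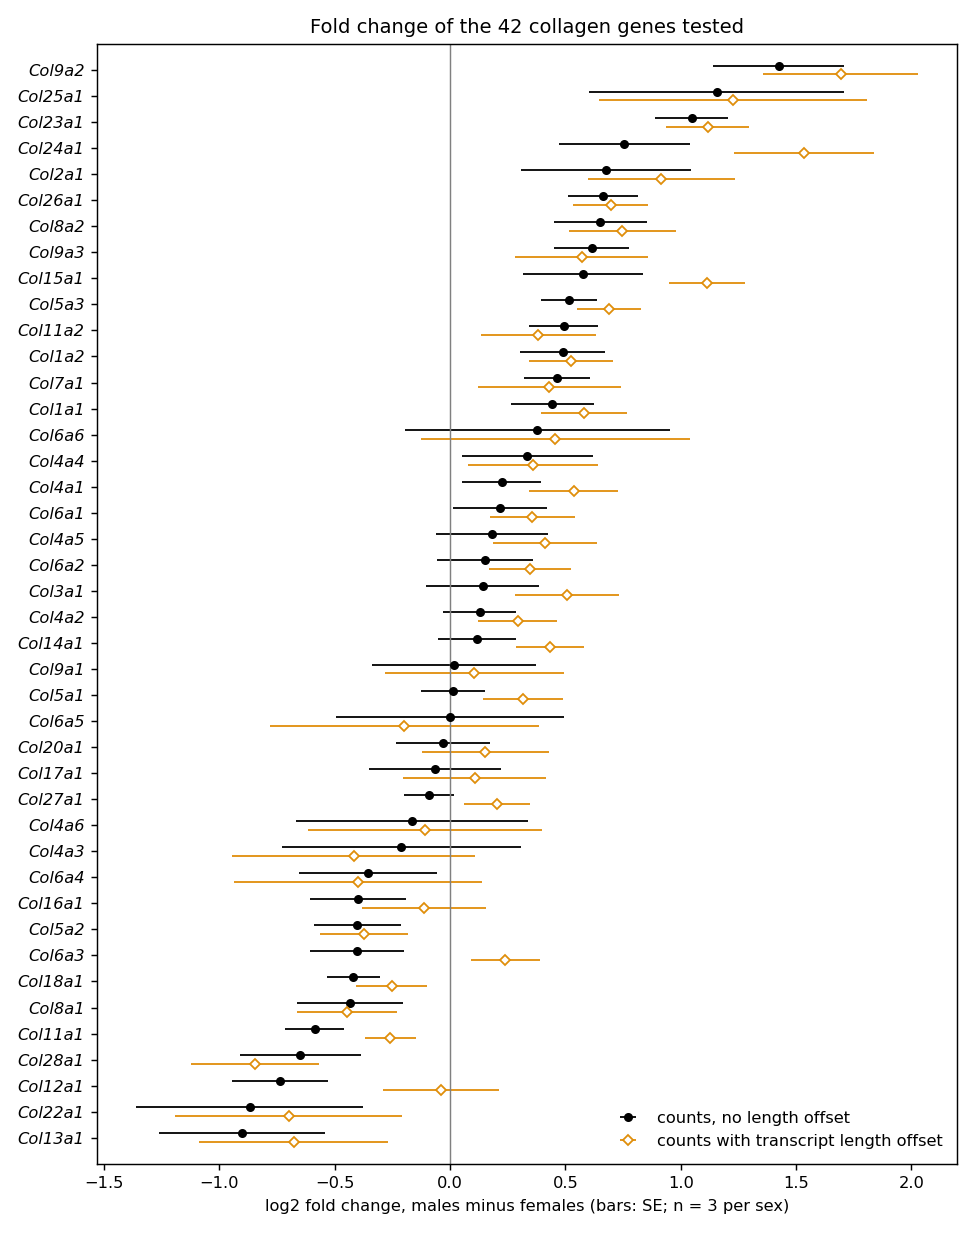
Log2 fold change, males minus females, of the 42 collagen genes tested in edgeR (n = 3 per sex, bars are SE), from counts (filled circles) and with a transcript length offset (open diamonds), ordered by the fold change from counts. The offset moved Col6a3 across 0 and moved Col24a1, Col15a1 and Col12a1 by over 0.5.

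The ratio of partner transcripts was compared for 9 pairs of chains that can share a trimer. Col1a1 to Col1a2, whose products join in the type I trimer, had a TPM ratio of 0.637, 0.652 and 0.607 in males and 0.586, 0.612 and 0.617 in females, with overlap. Col6a1 to Col6a2 had a ratio of 1.16, 1.13 and 1.28 in males and 1.17, 1.18 and 1.19 in females. This ratio thus held within a narrow band in females while both genes varied in level. For 5 pairs the sexes did not overlap, a count for which no background over other gene pairs was taken. The type IX ratios among them both divide by Col9a2, so the 5 are not independent. Col8a1 to Col8a2 was 4.80 ± 0.809 in males and 11.4 ± 2.04 in females (SD, n = 3 each), Col9a3 to Col9a2 was 0.386 ± 0.0494 in males and 0.853 ± 0.0825 in females, and Col9a1 to Col9a2 was 0.0442 ± 0.0168 in males and 0.137 ± 0.0622 in females. Col5a1 to Col5a2 was 1.39 ± 0.236 in males and 0.843 ± 0.210 in females, and Col4a1 to Col4a2 was 1.75 ± 0.139 in males and 1.46 ± 0.0862 in females. For each of these 5 the two-sided exact permutation test gave p = 0.1, the smallest that 3 against 3 libraries can give, and 0.18 after adjustment over the 9 ratios. No ratio could therefore pass the test.

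**Figure D4:**
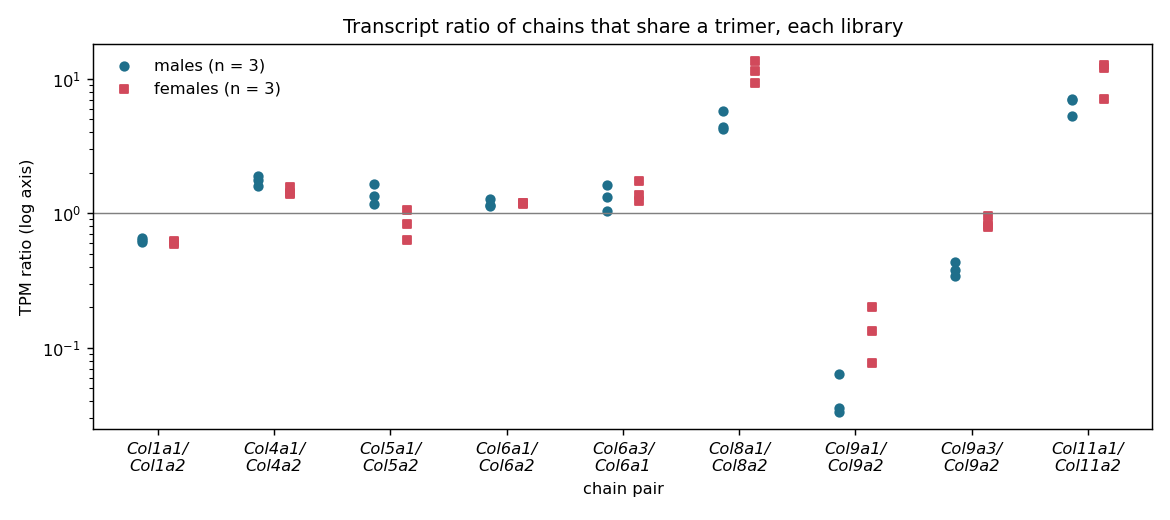
TPM ratio of 9 pairs of collagen chains in each library, on a log axis, with males as circles to the left and females as squares to the right. The ratios of Col8a1 to Col8a2 and of Col9a3 to Col9a2 were lower in every male library than in every female one, and the ratio of Col6a1 to Col6a2 overlapped.

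The share of each gene carried by its short transcripts differed among the libraries. Transcripts less than 50% as long as the longest coding one and centred in the 3′ part of the gene were summed. Among collagen genes with a mean of 5 TPM or more, 14 had 10% or more of their TPM in such transcripts, limits that were chosen after the values were seen. In 7 of the 14 (50.0%) every male library had a larger share than every female library, against 16.1% of the 2546 protein-coding genes chosen in the same way. Female library 3 was above the other 2 female libraries in 10 of the 14 (71.4%), against 51.5% of those genes. The limit on the share was applied to the mean over all 6 libraries, so a gene high in males alone could enter. Col24a1 did so, with 0% in every female library, and is among the 7. The counts therefore describe the 14 genes and cannot show a property of collagen genes. For Col6a3 the share was 67.7%, 72.8% and 70.5% in males and 35.2%, 36.1% and 64.9% in females. For Col12a1 it was 67.5%, 79.5% and 73.5% in males and 25.3%, 38.5% and 68.5% in females. For Col15a1 it was 62.7%, 74.8% and 66.9% in males and 30.0%, 34.7% and 66.3% in females. In these genes female library 3 sat at or near the male values, while female libraries 1 and 2 stood apart. For Col11a1 the share was 37.7%, 49.6% and 42.9% in males and 14.1%, 13.6% and 34.02% in females, nearly all from Col11a1-204, a transcript annotated as subject to nonsense-mediated decay. Over all 35 collagen genes with such transcripts, without limits on level or share, the mean share was higher in males for 13 and lower for 16 (37.1% higher, against 41.1% of 7635 protein-coding genes). Short transcripts centred in the 5′ part were lower in males for 15 of 25 collagen genes and for 6400 of 9238 protein-coding genes, with a median share over the protein-coding genes of 1.83%, 1.62% and 2.04% in males and 5.41%, 4.33% and 2.11% in females. By that median female library 3 lay near the males. These shares come from the model that splits reads among transcripts, and their part in the gene-level results was not tested beyond the fits with a length offset and with the longest transcripts.

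**Figure D5:**
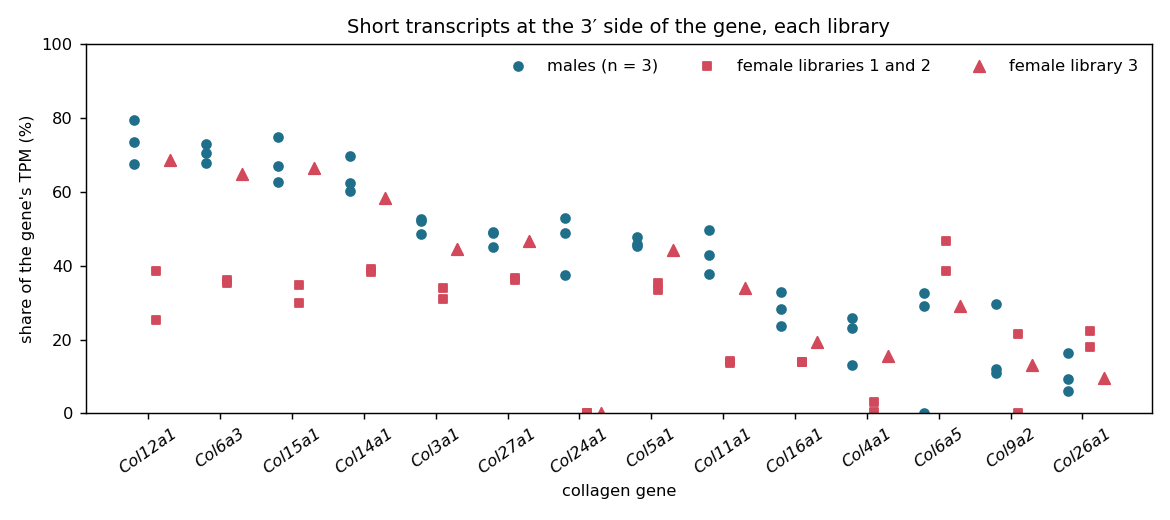
Share of the TPM of a gene in short transcripts centred in its 3′ part, in percent, for the 14 collagen genes with a mean of 5 TPM or more and a mean share of 10% or more, with males as circles, female libraries 1 and 2 as squares and female library 3 as a triangle. In Col12a1, Col6a3 and Col15a1 the triangle lies among or near the circles.

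The average effective transcript length was shorter in males for 35 of the 42 collagen genes tested, with a median log2 ratio of -0.14. Among protein-coding genes it was shorter in males for 6536 of 14388, with a median of 0.02. This length is an estimate made per library and is not the annotated length. Col4a2 had 99.2–99.8% of its TPM in a transcript of 6450 bases. Its effective length was 7624, 6908 and 7563 bases in males and 8819, 8311 and 7527 in females. Female library 3 thus lay within the male range for Col4a2. With the effective length as an offset, 6 collagen genes passed in edgeR, all higher in males. Their share is to be read against 5.30% of all genes called in that fit and 3.68% called higher in males. The 6 were Col23a1, Col9a2, Col26a1, Col5a3, Col15a1 and Col24a1. Col15a1 then had a log2 fold change of 1.11 ± 0.16 with an adjusted p of 0.0361. Col24a1, a fibrillar chain of bone and cornea, had 1.54 ± 0.30 with an adjusted p of 0.0556. The effective length of Col15a1 was 3000, 2401 and 2812 bases in males and 4606, 4321 and 2748 in females. Female library 3 was thus within the male range, and female libraries 1 and 2 stood apart. For Col24a1 it was 4104, 3511 and 3991 bases in males and 6317, 6431 and 7398 in females, with female library 3 farthest from the males. The retained-intron transcript Col24a1-204 held 37.4%, 52.8% and 48.9% of the TPM of Col24a1 in males and was listed at 0 in all females. The median over the 42 genes was 0.35 with the offset and 0.14 without it, and 4 genes (Col6a3, Col17a1, Col20a1 and Col27a1) changed sign. When the longest coding transcript alone stood for each gene, an alternative chosen after seeing the data, no collagen gene passed and 1 of 13916 genes did in all, while 13 of 41 collagen genes and 2505 genes in all had an unadjusted p under 0.05. The called genes kept their direction there. Col23a1 had a log2 fold change of 1.06, Col9a2 of 1.42, Col26a1 of 0.66, Col5a3 of 0.54 and Col11a1 of -0.79. For some other members the longest coding transcript carried little of the gene. Col9a1-201 was at 0 TPM in every library, and Col6a2-202 held 10.4–13.2% of the TPM of Col6a2.

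Enzymes that modify, fold, cut and crosslink collagen, and the receptors that bind it, were taken from lists of 43 genes, all tested. Of these, 2 were called higher in males and 1 lower (6.98%), near the 5.27% of all genes, and the median log2 fold change was -0.16. Lox codes for lysyl oxidase, which starts the crosslinking of fibrils, and had CPM of 626, 472 and 632 in males and 263, 324 and 360 in females. All males were above all females, with a log2 fold change of 0.87 ± 0.17 and an adjusted p of 0.0577 in edgeR. The other 4 lysyl oxidase genes had negative log2 fold changes and none passed: Loxl2, the highest of them, had CPM of 152, 102 and 103 in males and 162, 154 and 161 in females. P3h2 codes for a prolyl 3-hydroxylase that acts on type IV collagen among others, and had CPM of 39.6, 28.8 and 40.9 in males and 21.7, 25.5 and 22.95 in females, with an adjusted p of 0.0850 in edgeR. The other 9 genes of prolyl hydroxylation did not pass, P4hb among them with 823, 739 and 638 CPM in males and 943, 776 and 923 CPM in females. Bmp1, the protease that removes the C-propeptide of fibrillar procollagens, was lower in males, with CPM of 146, 142 and 142 in males and 226, 184 and 195 in females. Its log2 fold change was -0.49 ± 0.11 with an adjusted p of 0.0748 in edgeR. None of the 5 genes of lysyl hydroxylation and glycosylation or of the 5 of folding and export passed. None of the 10 receptor and uptake genes passed, and 9 of the 10 had negative log2 fold changes. Itgb1, the shared beta chain of the collagen-binding integrins, had CPM of 654, 593 and 619 in males and 679, 706 and 694 in females. All 3 calls were lost without male library 1, male library 3, female library 1 or female library 2, that of Bmp1 also without male library 2 and with the length offset, and that of P3h2 with scaling by library size alone. With the longest coding transcript alone, the log2 fold change of Lox was 0.05.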

How the data were processed

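Stranded poly-A libraries (TruSeq) of 6 nerve pools, 3 per sex, were sequenced as paired ends. The submitters' processing notes name Trimmomatic 0.39, Salmon 1.5.2 and MultiQC 1.9, and the study's methods give a GENCODE mouse annotation, with the study's own gene summary made in tximeta. Per transcript, the authors deposited an estimated count from Salmon, without normalisation, and a TPM, for which Salmon divides by effective length and brings every library to one total. Salmon splits reads among transcripts that share sequence, so transcript shares are model estimates.

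Estimated counts and TPM were summed per gene, and counts were rounded. Genes that passed filterByExpr were scaled by TMM in edgeR 4.0.16 (R 4.3.3), and its quasi-likelihood F test was run with a term for sex. Benjamini-Hochberg adjustment covered all 18424 genes tested, with a threshold of 0.1 as in the study, and SE is the log2 fold change divided by the square root of F. CPM are TMM-scaled throughout. Depth was 49158283–69848769 counts per library. Within-sex library pairs differed by far more than sampling noise (chi-square per degree of freedom 48.9 or more), so none was a copy. Ratios of chains were tested with an exact permutation test over libraries in scipy 1.17.1. The effective length of a gene was the mean, weighted by TPM, of the effective lengths that Salmon gave its transcripts in each library. This is the length used in the transcript length offset. The edgeR script was tested on simulated data.

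The alternatives were other scalings, DESeq2 1.42.0, limma-voom (limma 3.58.1), other filters, a transcript length offset, a replicate block, protein-coding genes alone, an adjusted p of 0.05, coding transcripts alone, CPM in place of TPM and each library left out. The longest coding transcript alone was added after seeing the data. Named genes were the called genes, the highest of each class, the 10 highest of all, the chain pairs and the 5 uncalled genes of smallest p. Col24a1, Col2a1, Col17a1, Col20a1 and Col27a1 were named after their values were seen. The collagen genes, lists and tests were chosen with earlier results of these data known. Coordinates, exons and sequences are from GENCODE M39 on GRCm39, a later release than the study's. Some of the cell type markers are not reported here.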

Additional observations from a re-analysis of the deposited data

How the results depend on the processing

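The number of collagen genes called between the sexes, 5 in all, was 15 with DESeq2 (11 higher in males, 4 lower), 0 with the replicate block (13 at an unadjusted p under 0.05 in edgeR), 0 with the longest coding transcript alone and 1 at an adjusted p under 0.05. It ran from 0 to 8 when single libraries were left out, with 0 to 6 higher in males and 0 to 3 lower. The 1 gene lower in males became 2 with library size alone and with no filter, and 0 with the length offset. DESeq2, the tool the study used, added Col1a1, Col1a2, Col7a1, Col8a2, Col9a3, Col11a2 and Col24a1 higher in males. It also added Col12a1, Col18a1 and Col28a1 lower in males. The 15 calls of DESeq2 among 42 collagen genes stand beside 2436 among 18424 genes tested. Calls over all genes, 971, were 2436 with DESeq2, 1617 with no filter, 56 with the replicate block, 1 with the longest coding transcript alone, 284 at an adjusted p under 0.05, and 1 to 2612 with a library left out. Same-numbered libraries of the sexes deviated with correlations of -0.04, -0.30 and -0.295, which gave no sign of pairs. With 3 libraries per sex these values cannot settle the matter. Whether same-numbered libraries shared a batch was not tested. All 5 called genes kept their direction in all 16 alternatives. Among the log2 fold changes given, reversals were Col6a3 (0.24) and Col27a1 (0.20) with the length offset, Col9a3 with the longest transcript (-0.035), and Col5a1 with library size alone (-0.035) or the longest transcript (-0.018). Col17a1 (0.11) and Col20a1 (0.15), neither of them called, also changed sign with the length offset. The longest coding transcript of Col9a3, Col9a3-203, was at 0 TPM in male libraries 1 and 2 and female library 2. It reached at most 0.488 TPM in any library, so the reversal of Col9a3 rests on few reads. With a library left out, the log2 fold change of Col3a1 ran from -0.16 to 0.35, of Col4a2 from -0.0089 to 0.25 and of Col5a1 from -0.12 to 0.12. The log2 ratio of Col1a1 to Col1a2 was -0.049 by CPM and that of Col6a1 to Col6a2 was -0.020 with coding transcripts alone. With a library left out, the log2 ratio of Col6a1 to Col6a2 ran from -0.048 to 0.045 and that of Col6a3 to Col6a1 from -0.28 to 0.033. The collagen share differed by 0.116 percentage points by CPM, from a female mean of 1.02%, and by 0.0686 by TPM, from a female mean of 0.269%. Relative to those means the difference was smaller by CPM. The cause of these changes was not tested. With 3 pools per sex and no uninjured nerve, small differences cannot be seen, and genes under 1 TPM rest on few reads.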
